A study of Mus musculus with 2 samples.

Results

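Lymphatic endothelial cells line the vessels that drain fluid and leukocytes from the lung. They were 95 of 9900 cell barcodes in 2 droplet libraries of mouse lung cells sorted for a reporter. Of the 95, 22 lay in the saline library and 73 in the bleomycin library. A barcode was counted as lymphatic when it held at least 3 UMIs (unique molecular identifiers, each standing for 1 captured transcript) of the endothelial genes Cdh5, Pecam1, Cldn5 and Egfl7 together, and at least 3 of the lymphatic genes Prox1, Mmrn1 and Reln together. It also had to hold none of the leukocyte gene Ptprc or the epithelial gene Epcam. Only barcodes with at least 500 detected genes and at most 10% mitochondrial UMIs entered. The cells were thus chosen by their own UMI counts, and the levels of the selecting genes are a description only.

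All mice, of either treatment, were Lepr-Cre;Rosa26-tdtomato animals of 8 to 10 weeks. In such mice a cell becomes tdTomato-positive for good, with its descendants, once it has made Cre under control of the leptin receptor gene. Live red cells were sorted from digested lung. A lymphatic cell that was red through the reporter had thus made Cre itself or had a forebear that did. Whether each captured lymphatic cell carried the reporter was not examined. The treatments were saline and bleomycin, a drug that injures the lung and leads to scarring. The sources used here do not give the number of mice, the dose or the day of collection. Each treatment was measured in 1 library, so no difference was tested, every interval is an exact 95% interval for counting error alone, and a difference between libraries cannot be told apart from one between animals or preparations.

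As background, lymphatic endothelium is set apart from blood endothelium by the transcription factor Prox1, which switches on and maintains the lymphatic programme. Its growth and survival are driven through Flt4, the receptor for VEGF-C and VEGF-D, with Nrp2 as co-receptor. Lymphatic capillaries make the chemokine Ccl21a, which draws Ccr7-bearing dendritic cells and T cells into the vessel.

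Ccl21a gave more UMIs here than any other listed lymphatic marker, and it is one of several almost identical mouse genes whose reads cannot always be assigned to 1 copy. The transcripts of Ccl21a (chromosome 4, 42772860 to 42773993, minus strand) and of its copy Gm21541 are both 870 bases long in GENCODE vM21 on GRCm38, the mm10 assembly. They differ at 6 bases (99.3% identity), of which 3 lie in the last 300 bases, the end nearest to where this 3′ chemistry reads. Within the 402 coding bases they differ at 2 places, shown here 5′ to 3′ on each gene's own strand because they separate the copies. The differing base is in capitals.
Ccl21a, coding bases 64 to 104: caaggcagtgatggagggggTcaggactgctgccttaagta
Gm21541, coding bases 64 to 104: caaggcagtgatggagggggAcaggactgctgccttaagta
Ccl21a, coding bases 174 to 214: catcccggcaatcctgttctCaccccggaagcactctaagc
Gm21541, coding bases 174 to 214: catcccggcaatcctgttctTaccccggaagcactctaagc
Each window crosses an exon junction. In Ccl21a the first joins exons 1 and 2 (chr4:42773727-42773855) and the second exons 2 and 3 (chr4:42773523-42773657). In Gm21541, on the plus strand, the same exon pairs lie at chr4:41903748-41903876 and chr4:41903946-41904080. Ccl21b shares 99.5% of the coding bases. Values given for Ccl21a are those counted under that name and may hold reads of its copies.

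Lymphatic cells made up a larger share of the bleomycin library. They were 0.405% [0.254 to 0.613] of 5432 saline barcodes and 1.63% [1.28 to 2.05] of 4468 bleomycin barcodes. Among endothelial barcodes alone they were 13.0% [8.34 to 19.0] of 169 after saline and 35.3% [28.8 to 42.2] of 207 after bleomycin. Blood endothelial cells, the class set beside them throughout, held at least 3 UMIs of Gpihbp1, Ptprb and Cd93 together and lay outside the lymphatic gate. They numbered 129 after saline and 127 after bleomycin.

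Depth differed between the libraries, and a gate of 3 UMIs is easier to pass in a deeper cell. Median UMIs per kept barcode were 6364.5 in the saline library and 12409 in the bleomycin library. Lymphatic cells had medians of 3941.5 (2364 to 20187) and 10464 (4475 to 41507). With every barcode thinned to 4000 UMIs before the gates, lymphatic cells were 9 of 4494 saline barcodes (0.200% [0.0916 to 0.380]) and 52 of 4468 bleomycin barcodes (1.16% [0.870 to 1.52]). This left out 938 shallower saline barcodes, 11 of them lymphatic. At this fixed depth they were 7.38% [3.43 to 13.5] and 25.4% [19.6 to 31.9] of endothelial barcodes. The share was higher after bleomycin at either depth, and the intervals of the libraries did not meet. The cut at 4000 UMIs took 11 of 22 saline lymphatic cells and 0 bleomycin ones, which by itself lowers the saline share. The part of depth in the difference was thus not tested. The number of lymphatic cells in the lung, their labelling by the reporter and their recovery cannot be told apart here.

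**Figure D1:**
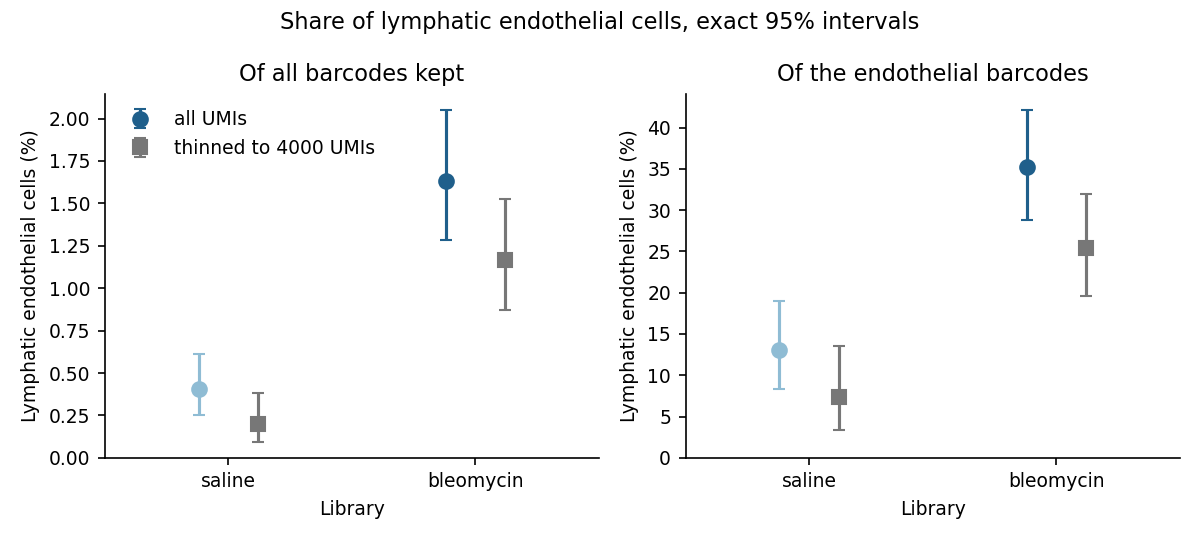
Share of lymphatic endothelial cells (%, y axis) in each library (x axis), of all kept barcodes in the left panel and of endothelial barcodes in the right one, with all UMIs and with barcodes thinned to 4000 UMIs; bars are exact 95% binomial intervals. The bleomycin values (1.63% and 35.3% with all UMIs) lie above the saline ones (0.405% and 13.0%) in both panels.

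Among the selecting genes, Mmrn1, which encodes an extracellular matrix protein, was found in every lymphatic cell, with 1 to 21 UMIs after saline (median 8) and 1 to 43 after bleomycin (median 9). Prox1 was found in 13 of 22 saline and 54 of 73 bleomycin cells, and Reln, which encodes the secreted protein reelin, in 17 and 62. The summed UMIs of the 3 genes ran from 3 to 25 a cell (median 10.5) and from 3 to 53 (median 13). Few cells sat near the threshold: 1 saline and 2 bleomycin cells had exactly 3, and 3 endothelial barcodes in each library had 1 or 2. The saline cell at 3 held 170 Ccl21a UMIs and the bleomycin cells at 3 a median of 53.5, against a median of 1 just outside in either library. Other markers did not all separate these cells. In saline the cell at 3 had 7 Lyve1, 1 Flt4 and 1 Pdpn UMI, against medians of 0 just outside. In bleomycin the 2 cells at 3 both held Pdpn, but had no Flt4 UMI and a Lyve1 median of 5.5. The 3 bleomycin barcodes just outside had a Lyve1 median of 17, and 2 of them held Flt4 and 2 Pdpn. In each library 1 further barcode was set aside for a Ptprc or Epcam UMI. Of the lymphatic cells, 3 saline and 23 bleomycin ones also reached 3 UMIs of Gpihbp1, Ptprb and Cd93. The libraries shared 33 barcode sequences, 1 of which was a saline lymphatic cell.

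Markers that the selection did not use were high in the chosen cells. Levels are in UPM, UMIs of a gene per 1000000 UMIs of the whole class in that library, or of a single cell where this is said. The saline lymphatic class held only 118142 UMIs, so that 1 UMI was worth 8.46 UPM there, against 996549 UMIs after bleomycin. Podoplanin (Pdpn), a membrane glycoprotein of lymphatic endothelium, was at 482 [365 to 625] UPM in saline and 509 [465 to 555] UPM in bleomycin lymphatic cells, against 10.97 [5.84 to 18.8] and 6.55 [2.83 to 12.9] UPM in blood endothelial cells. Flt4 was at 466 [351 to 606] and 333 [298 to 371] UPM, against 11.8 [6.46 to 19.8] and 25.4 [17.3 to 36.1] UPM. For both genes the lymphatic intervals lay far above the blood endothelial ones in either library.

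Lyve1, a hyaluronan receptor used to mark lymphatic capillaries, separated the classes less. It was at 1160 [974 to 1371] and 1765 [1684 to 1850] UPM in lymphatic cells and at 356 [323 to 392] and 882 [831 to 937] UPM in blood endothelial cells. In single bleomycin cells Lyve1 ran from 0 to 7504 UPM (median 1574) in the lymphatic class and from 0 to 8305 (median 761) in the blood class. The cells of both classes thus overlapped over the whole lymphatic range. Pdpn, by contrast, had a median of 460.3 UPM per cell in bleomycin lymphatic cells and of 0 in blood endothelial cells, of which 8 of 127 held any.

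**Figure D2:**
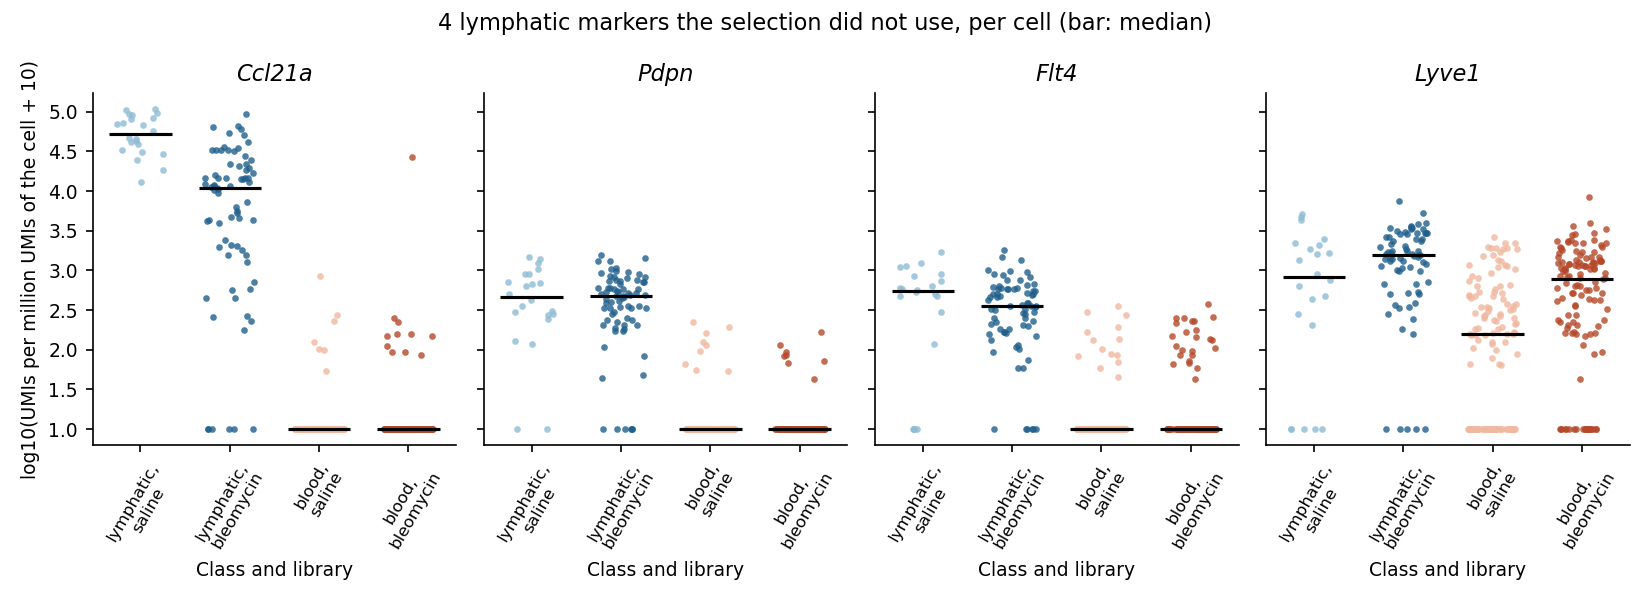
Level per cell (y axis, log10 of the cell's UPM plus 10) of Ccl21a, Lyve1, Pdpn and Flt4 in lymphatic and blood endothelial cells of each library (x axis); each dot is 1 cell and each bar a median. Ccl21a, Pdpn and Flt4 have medians of 0 in blood endothelial cells, and Lyve1 has medians of 149.9 UPM (saline) and 761 UPM (bleomycin) there.

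Genes were set side by side between classes only where they were abundant enough: at least 30 UMIs in the higher class and at least 15 expected in the other at an equal level. A difference of at least 2-fold, after 1 UPM was added to both levels, was called. In the bleomycin library 5701 genes could be compared, of which 605 (10.6%) were higher in lymphatic than in blood endothelial cells and 1063 (18.6%) lower, 29.3% in all. In the saline library 1108 genes could be compared, of which 70 (6.32%) were higher and 225 (20.3%) lower, 26.6% in all. Of the 605 genes, 79 could also be compared after saline, where 38 were again at least 2-fold higher and 1 was at least 2-fold lower. Of the 1063, 307 could be compared, 166 were again lower and 6 were opposite. Ratios below are log2 with the added 1 UPM, and brackets hold the exact interval of the ratio without it. Genes at 0 UMIs in 1 class are given a bound that takes the 0 as 3 UMIs.

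Of 17 listed lymphatic markers outside the gate, 16 could be compared after bleomycin. Of these, 14 were higher in lymphatic cells, where 10.6% of all genes were, and 1 was lower; their median log2 ratio was 2.45, against -0.05 over all genes compared. After saline all 10 that could be compared were higher, against 6.32% of all genes, with a median of 4.08 against -0.18. The list holds known lymphatic genes, and the gate already selects for the type, so its direction is no independent evidence. The largest was Ccl21a, at 10305 [10106 to 10506] UPM in bleomycin lymphatic cells and 148 [127 to 172] UPM in blood endothelial cells (log2 6.11 [5.91 to 6.34]). Of the 181 Ccl21a UMIs in those blood cells, 170 came from 1 cell. In the saline library Ccl21a was at 48569 [47320 to 49842] against 6.75 [2.91 to 13.3] UPM (log2 12.61 [11.83 to 14.03]).

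Nts, which encodes the peptide neurotensin, was at 1042 [979 to 1107] UPM in bleomycin lymphatic cells and 22.9 [15.2 to 33.2] UPM in blood endothelial cells (log2 5.44 [4.96 to 6.10]). Of these Nts UMIs, 1 cell held 92.9% in the blood class and 1 cell 27.6% in the lymphatic class. The mannose receptor gene Mrc1 was at 98.3 against 1.64 UPM (log2 5.23 [4.02 to 8.97]). Fxyd6, a regulator of the sodium pump, had log2 ratios of 2.50 after bleomycin and 6.35 [5.66 to 7.38] after saline, and the scavenger receptor gene Stab1 of 1.62 and 2.37. Ackr2, an atypical receptor that clears inflammatory chemokines, was at 133 against 24.6 UPM (log2 2.39 [1.86 to 3.06]). The exceptions after bleomycin were Clca3a1, at 15.1 [8.42 to 24.8] against 54.1 [41.8 to 68.8] UPM, and Lyve1, whose ratio fell just short of 2-fold (interval 0.89 to 1.11 on the log2 scale).

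The genes with the largest ratios over blood endothelium, named by size alone, included several outside the usual marker set. Thy1, a cell-surface glycoprotein best known from T cells, neurons and fibroblasts, was at 660 [522 to 824] UPM in saline and 983 [923 to 1047] UPM in bleomycin lymphatic cells, against 0.843 [0.0214 to 4.70] and 3.28 [0.893 to 8.39] UPM in blood endothelial cells (log2 8.49 [7.09 to 14.93] and 7.85 [6.87 to 10.11]). It was found in 20 of 22 saline and all 73 bleomycin lymphatic cells, against 1 of 129 and 4 of 127 blood endothelial cells. Ptx3, a secreted pattern-recognition protein, was at 169 [103 to 261] and 367 [331 to 407] UPM, against 0 UMIs and 1 UMI in blood endothelium (log2 7.66 [6.32 to 14.12] after bleomycin, at least 66.9-fold after saline). The levels of both genes were also low in the non-endothelial barcodes of either library: Thy1 was at 7.24 and 23.7 UPM there, and Ptx3 at 0.919 and 6.78 UPM.

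Gap43, a growth-cone protein of neurons, was at 310 [276 to 347] UPM in bleomycin lymphatic cells and 1.64 [0.198 to 5.92] UPM in blood endothelial cells. The basement membrane gene Nid2 (nidogen-2) was at least 36.3-fold higher after bleomycin and Hoxd8, a homeobox gene, at least 22.5-fold. Pcsk6, a proprotein convertase, had a log2 ratio of 6.24 [4.88 to 12.69] after bleomycin and was at least 56.9-fold higher after saline. The guidance cue Sema3a, at 112 [92.5 to 135] against 0.819 [0.0207 to 4.57] UPM, had a log2 ratio of 5.96 [4.59 to 12.42]. The others of the 15 highest were Pkib, Hoxd3os1, Serinc2, Lrrn4cl, Sh3gl3 and Slc45a3, with Ccl21a and Pdpn. Blood endothelial cells held at most 2 UMIs of each of these 6 in either library.

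**Figure D3:**
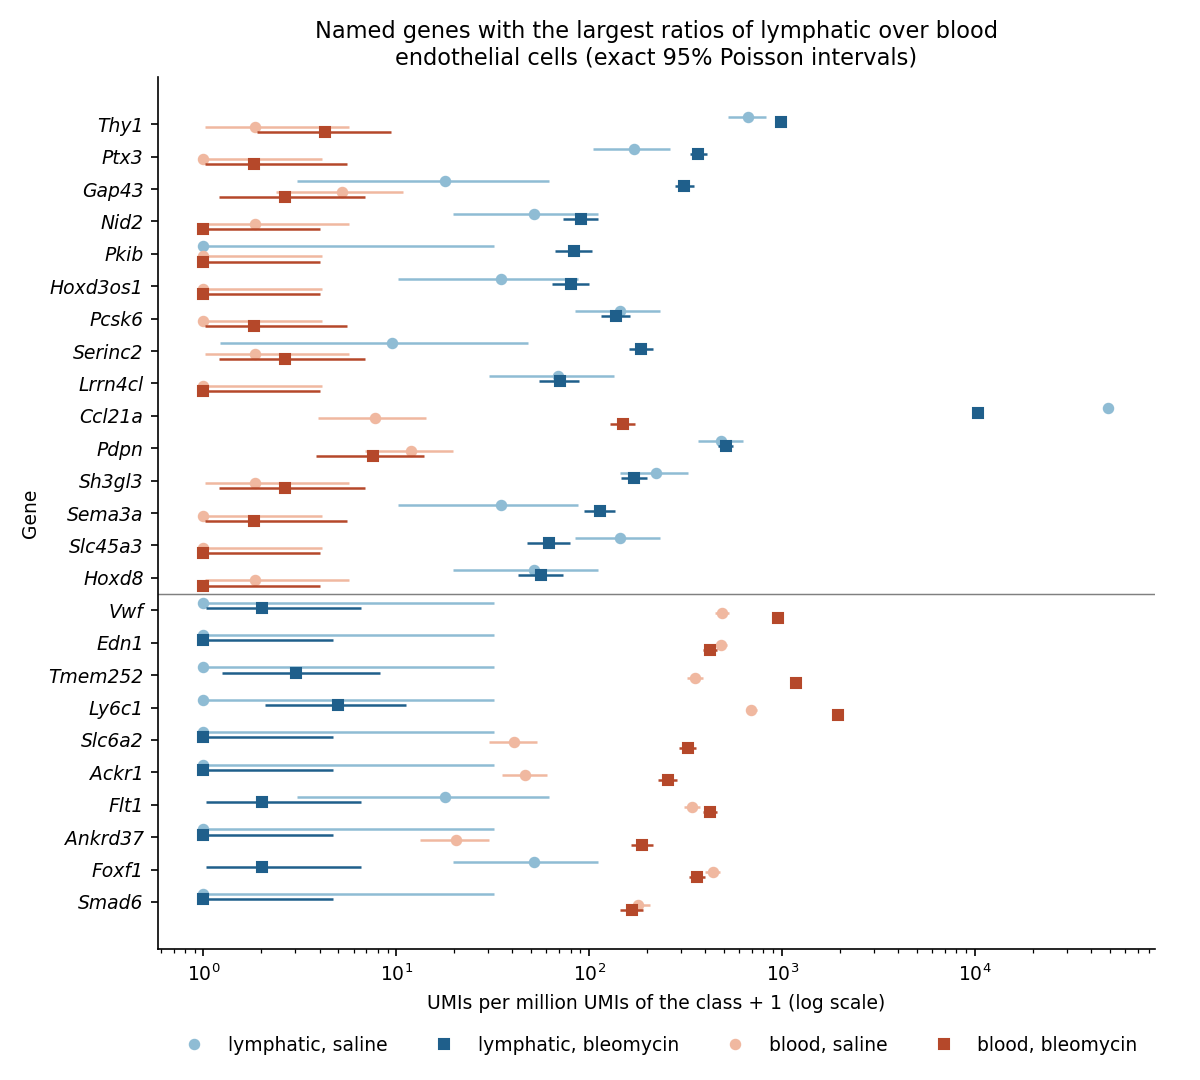
Level of the named genes with the largest ratios (x axis, UPM of the class plus 1, log scale; genes on the y axis) in lymphatic and blood endothelial cells of both libraries, with exact 95% Poisson intervals. Thy1, Ptx3 and Pdpn lie to the right in lymphatic cells of both libraries, and Vwf, Edn1 and Flt1 in blood endothelial cells of both.

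The genes lowest against blood endothelium after bleomycin were those of blood vessels. Vwf, the clotting factor stored in blood endothelium, had 0 UMIs in saline and 1 UMI in bleomycin lymphatic cells, against 486 [447 to 527] and 951 [897 to 1008] UPM in blood endothelial cells (log2 -8.89 [-15.19 to -7.41] after bleomycin). Edn1, which encodes the vasoconstrictor endothelin-1, had no UMI in lymphatic cells of either library and was at least 139.9-fold lower after bleomycin. Ly6c1, a surface protein of capillaries, was at 4.01 [1.09 to 10.3] against 1950 [1872 to 2030] UPM after bleomycin. Flt1, a receptor for VEGF-A, had 1 UMI against 423 [387 to 461] UPM, and Foxf1, a transcription factor of lung capillaries, 1 UMI against 362 [329 to 398] UPM. The others of the 10 lowest were Tmem252, Slc6a2, Ackr1, Ankrd37 and Smad6.

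Of 20 listed blood capillary genes 19 could be compared after bleomycin, and 17 were lower in lymphatic cells (18.6% of all genes were), none higher, with a median log2 ratio of -5.11. After saline 11 of 15 were lower, against 20.3% of all genes. Kdr, the main VEGF-A receptor, was not called, at 141 [119 to 167] UPM in lymphatic and 125 [106 to 146] UPM in blood endothelial cells after bleomycin. Plvap, a protein of endothelial pores, was lower by little more than 2-fold, at 521 [477 to 568] against 1114 [1056 to 1175] UPM. Of 15 artery and vein genes, all compared after bleomycin, 13 were lower and none higher, against 18.6% and 10.6% of all genes. The blood class was chosen by blood endothelial genes and outside the lymphatic gate. The direction of the capillary list and of the artery and vein list is thus no independent evidence. Slc6a2, a noradrenaline transporter of veins, and Ackr1, a chemokine-binding protein of venules, had no UMI in lymphatic cells, and were at least 107-fold and 84.4-fold lower. The gate gene Gpihbp1 had at least 1 UMI in 38 of 73 bleomycin lymphatic cells, and up to 10.

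Transcription factors of the lymphatic programme were mixed. Of 10 listed, 8 could be compared after bleomycin, with 3 higher (10.6% of all genes were) and 2 lower (18.6%). Tbx1, a T-box factor, was at 103 [84.4 to 125] UPM in bleomycin lymphatic cells and 2.46 [0.507 to 7.18] UPM in blood endothelial cells (log2 4.92 [3.81 to 7.70]), and was at least 80.3-fold higher after saline. Maf was higher in both libraries, at 703 [560 to 871] against 48.9 UPM after saline and 282 [250 to 317] against 13.9 UPM after bleomycin. Nfatc1, a calcineurin-regulated factor of valves, had a log2 ratio of 1.63 [0.90 to 2.53] after bleomycin. Gata2, a factor of lymphatic valves, was lower, at 23.1 [14.6 to 34.6] against 184 [161 to 210] UPM. Nr2f2, which acts with Prox1 and marks veins as well, was at 181 against 203 UPM after bleomycin but at 423 [314 to 558] against 154 [132 to 178] UPM after saline. Sox18 and Hhex did not reach 2-fold in the bleomycin library.

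Among VEGF genes, the receptors were mixed and so were the ligands. Of 12 listed, 10 could be compared after bleomycin, with 3 higher (10.6% of all genes were) and 5 lower (18.6%). The co-receptor Nrp2 was at 348 [313 to 387] UPM in bleomycin lymphatic cells and 68.0 [54.2 to 84.3] UPM in blood endothelial cells (log2 2.34 [2.01 to 2.72]), with a like ratio after saline (2.33 [1.79 to 2.88]). Its relative Nrp1 went the other way, at 10.0 [4.81 to 18.5] against 340 [308 to 374] UPM (log2 -4.95), and at -2.05 after saline. The ligand genes Vegfc and Vegfa had 2 UMIs each in bleomycin lymphatic cells, against 134 and 68.0 UPM in blood endothelium. Pgf, placental growth factor, was the ligand gene that was higher, at 124 [103 to 148] against 10.7 [5.67 to 18.2] UPM. Bleomycin lymphatic cells thus held the receptor Flt4 but almost no transcript of its ligand Vegfc. Figf, the gene of its other ligand VEGF-D, was lower than in blood endothelium too, with log2 ratios of -2.28 to -1.23 over the processing choices tried. Of 5 angiopoietin and Tie genes compared, 1 was higher and 2 lower. Angpt2 was higher (144 against 9.01 UPM, log2 3.86 [3.12 to 5.04]) and its receptor Tek lower (19.1 against 216 UPM, log2 -3.44 [-4.26 to -2.83]), with Tie1 level at 172 against 175 UPM.

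Valve, guidance and matrix genes were mixed, and are read against the 10.6% of all genes that were higher after bleomycin and the 18.6% that were lower. Of 15 valve and collecting vessel genes 9 could be compared, 5 higher and 2 lower. The gap junction gene Gja1 (connexin 43) was higher in both libraries (log2 3.19 [2.66 to 3.90] and 5.09 [4.13 to 6.61]) while Gja4 (connexin 37) was lower in both (-6.30 and -1.40). Itga9, an integrin subunit of valves, was at 110.4 [90.7 to 133] against 26.2 UPM after bleomycin. Of 20 guidance genes 4 of 15 compared were higher, among them Sema3d (log2 3.92) and the netrin receptor Unc5b (146 against 12.3 UPM, log2 3.46), and 5 lower. Of 20 matrix genes 3 of 19 were higher and 5 lower, shares near those of all genes; the laminin chain Lama4 was at 116 against 19.7 UPM.

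Genes that guide leukocytes were mostly lower in lymphatic cells. Of 20 listed, 14 could be compared after bleomycin, 8 lower (18.6% of all genes were) and 2 higher (10.6%), the latter being Ccl21a and Ackr2. Both are also in the lymphatic marker list, and Ackr1 is in the artery and vein list, so their direction is no independent evidence. The adhesion molecules of inflamed blood vessels were among the lower: Selp (P-selectin) had 1 UMI in bleomycin lymphatic cells against 266 UPM in blood endothelium, Vcam1 was at 3.01 against 261 UPM and Icam1 at 7.02 against 275 UPM. Sele (E-selectin) had none, and was at least 11.4-fold lower. The chemokine Cxcl12 was at 21.1 [13.0 to 32.2] against 442 [405 to 481] UPM. S1pr1, the receptor by which lymphocytes and endothelium sense sphingosine-1-phosphate, was at 224 against 404 UPM and not called.

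In the TGF-beta and BMP list, 11 of 17 genes compared after bleomycin were lower and 3 higher, against 18.6% and 10.6% of all genes. Their median log2 ratio was -1.78, against -0.05 over all genes. The BMP receptor Acvrl1 was at 25.1 [16.2 to 37.0] against 388 [353 to 424] UPM, the inhibitor Smad7 had 1 UMI against 133 UPM, and the inhibitor Smad6 had none. Smad1, a BMP signal carrier, and Tgfb1 were higher (log2 1.60 [1.26 to 1.97] and 1.42 [1.17 to 1.69]). The same 18.6% stands beside the next counts. Of 7 Notch genes compared 6 were lower and none higher, among them the target Hey1 (3.01 against 93.4 UPM) and the ligand Dll4 (15.1 against 46.7 UPM). Of 11 junction genes compared 4 were lower and none higher; Esam, an adhesion molecule of tight junctions, was at 24.1 against 617 UPM and Jam2, of the same kind, had 1 UMI against 257 UPM. In lipid handling 6 of 11 were lower and none higher, including the fatty acid transporter Cd36 (6.02 against 505 UPM) and the lipase Lpl (22.1 against 756 UPM). Cd36, Lpl and Acvrl1 are also in the blood capillary list, and Hey1 and Dll4 in the artery and vein list. The direction of these genes is thus no independent evidence.

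Lepr, the gene behind the reporter, was low in the lymphatic cells. It had 5 UMIs in saline lymphatic cells (42.3 [13.7 to 98.8] UPM) and 9 in bleomycin ones (9.03 [4.13 to 17.1] UPM). In cells thinned to 2000 UMIs it was found in 13.6% [2.91 to 34.9] and 6.85% [2.26 to 15.3]. Blood endothelial cells were at 6.20% [2.72 to 11.9] and 9.45% [4.98 to 15.9], so these intervals met those of lymphatic cells in both libraries. Non-endothelial barcodes were at 9.27% and 1.39%. Saline Epcam-positive barcodes, whose median depth was 8215, were at 1.12% [0.0284 to 6.10], and 1 of 7 bleomycin ones held Lepr.

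Between the libraries, lymphatic cells could be compared for 1192 genes: 248 (20.8%) were higher after bleomycin and 124 (10.4%) lower, 31.2% in all. The median log2 ratio over these genes was 0.44, and the small saline class lets a gene pass more easily when it rises. With ratios centred on that median, 108 genes were higher and 173 lower, so the share of calls that were higher went from 66.7% to 38.4%. In blood endothelial cells 5935 genes could be compared, with 276 (4.65%) higher and 440 (7.41%) lower, 12.1% in all. More than counting error can lie between 2 libraries.

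The lymphatic identity genes did not move together. Of 12 listed markers compared, 4 were lower after bleomycin (10.4% of all genes were) and 1 higher. Ccl21a fell from 48569 to 10305 UPM (log2 -2.24 [-2.28 to -2.19]). All 22 saline cells held it, at 12979 to 106818 UPM per cell (median 52399), and 67 of 73 bleomycin cells, at 0 to 92587 (median 10793). The bleomycin cells were mostly lower but overlapped the saline range. Its level in non-endothelial barcodes, which free RNA could give, was 10.8 and 6.51 UPM. Fxyd6 (log2 -2.14 [-2.46 to -1.82]), Fgl2, a fibrinogen-like protein (-1.59 [-2.01 to -1.16]), and Pard6g, a polarity gene (-1.19 [-1.61 to -0.76]), fell as well. With gates on barcodes thinned to 4000 UMIs, Fgl2 was at -0.65 and under 2-fold. Pdpn (0.08 [-0.32 to 0.50]), Flt4 (-0.48 [-0.90 to -0.04]), Nrp2 (-0.13 [-0.58 to 0.35]) and Lyve1 (0.61 [0.35 to 0.87]) stayed under 2-fold.

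Nts was the marker that rose, from 127 [71.1 to 209] to 1042 [979 to 1107] UPM (log2 3.03 [2.31 to 3.88]). It was found in 5 of 22 saline and 45 of 73 bleomycin lymphatic cells, and, with cells thinned to 2000 UMIs, in 13.6% [2.91 to 34.9] and 54.8% [42.7 to 66.5]. The thinned intervals did not meet. Non-endothelial barcodes held 0 and 0.423 UPM of Nts. The transcription factors Maf and Nr2f2, the only 2 of that list that could be compared, both fell (log2 -1.31 [-1.68 to -0.95] and -1.22 [-1.69 to -0.75]). As a mean over cells they were at -0.86 and -0.94, under 2-fold. In blood endothelial cells Maf was at -1.74 and Nr2f2 at 0.40.

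Beyond the markers, Gap43 rose from 2 UMIs to 310 UPM (log2 4.12 [2.33 to 7.25]) and Unc5b from 42.3 to 146 UPM (log2 1.76 [0.53 to 3.43]), which with the gates on thinned barcodes was 0.79. Fabp4, a fatty acid carrier, rose from 33.9 [9.23 to 86.7] to 602 [555 to 652] UPM (log2 4.11 [2.79 to 6.03]), and in blood endothelial cells from 91.1 to 324 UPM. It was found in 3 of 22 saline and 60 of 73 bleomycin lymphatic cells. Ptx3 and Angpt2 passed 2-fold (log2 1.11 and 1.27) but not relative to the median of all genes compared.

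Genes of cell division were higher in bleomycin lymphatic cells. Of 17 listed, 6 could be compared between the libraries and all 6 were higher (20.8% of all genes were). The whole list held only 31 UMIs in saline lymphatic cells, so these 6 were abundant enough only through the bleomycin class, and their count is no support for a direction. Birc5, which encodes the mitotic protein survivin, had 0 UMIs in saline and was at 189 [163 to 218] UPM in bleomycin lymphatic cells, at least 7.43-fold higher. Cdk1, the kinase that drives mitosis, was at least 6.05-fold higher, and Ube2c, which serves the mitotic ubiquitin ligase, went from 1 UMI to 397 [359 to 439] UPM (log2 5.40 [3.07 to 10.86]). Hist1h2ap and Ccnb2 were at least 5.57-fold and 5.49-fold higher, while Tyms, of DNA synthesis, passed 2-fold (log2 1.04) only without the centring. Against blood endothelial cells of the same library, 14 of 17 genes were higher in lymphatic cells (10.6% of all genes were), with a median log2 ratio of 1.35. Some of the 17 were abundant enough only through the lymphatic class, so this count is no support for a direction. In blood endothelium 8 of 11 genes were higher after bleomycin (4.65% of all its genes were). The list held 274 UMIs in saline and 740 in bleomycin blood endothelial cells, 47.4% and 23.0% of them in 1 cell. That count is thus no support for a direction either.

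Summed over the list, the level in lymphatic cells was 262 UPM after saline and 1946 UPM after bleomycin, in blood endothelial cells 231 and 606 UPM, and in non-endothelial barcodes 142 and 410 UPM. In cells thinned to 2000 UMIs, 17 of 73 bleomycin lymphatic cells (23.3% [14.2 to 34.6]) held at least 5 UMIs of the list, against 5 of 127 blood endothelial cells (3.94% [1.29 to 8.95]). None of 22 saline lymphatic cells did, which allows a share of up to 13.6% at 3 counts, with an exact upper limit of 15.4%. The saline and bleomycin intervals of lymphatic cells thus met. Without thinning the counts were 38 of 73 bleomycin and 1 of 22 saline lymphatic cells, at unlike median depths of 10464 and 3941.5 UMIs. Also among the 6 genes with the highest ratios was Klk8, a serine protease, found in 9 of 73 bleomycin cells (12.3%) and in no saline lymphatic cell. In cells thinned to 2000 UMIs the shares were 6.85% [2.26 to 15.3] and 0, with an upper limit of 15.4%. These intervals met. Blood endothelial cells held Klk8 more often without thinning, in 36 of 127 after bleomycin and 30 of 129 after saline. Its summed level after bleomycin was higher in lymphatic than in blood endothelial cells (log2 1.14). As a mean over cells it was not (-0.0267).

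**Figure D4:**
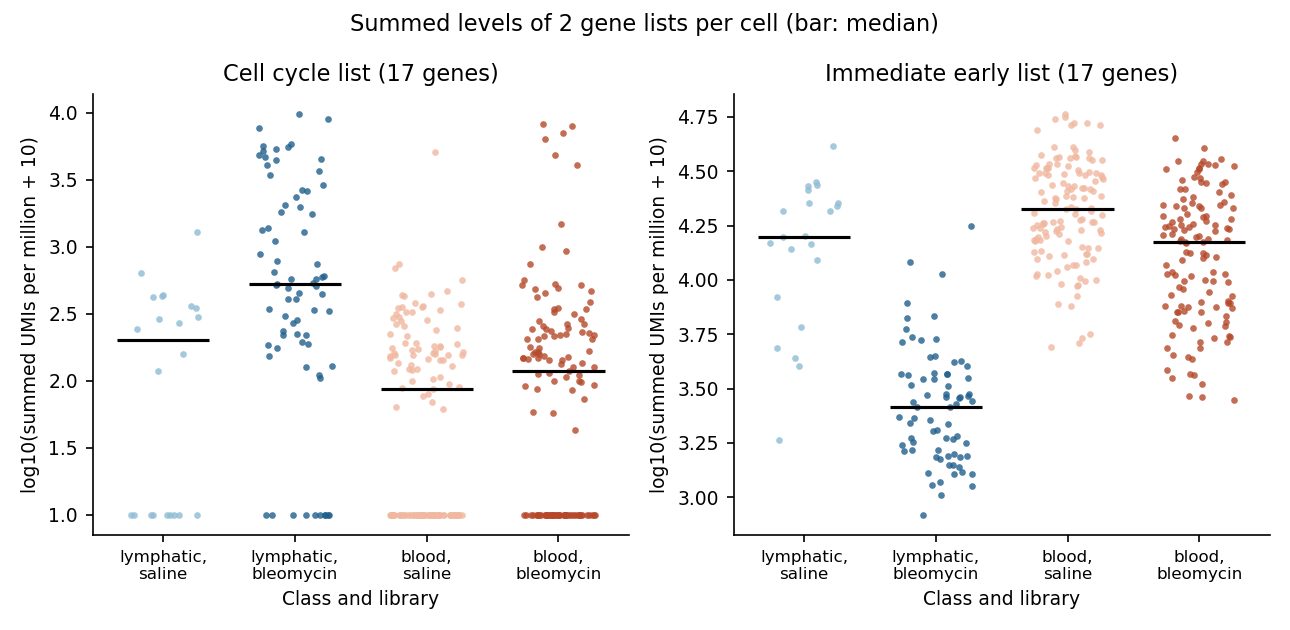
Summed level per cell (y axis, log10 of the cell's summed UPM plus 10) of the immediate early and cell cycle lists in lymphatic and blood endothelial cells of each library (x axis); dots are cells and bars medians. Lymphatic medians go from 15795 to 2606 UPM for the immediate early list and from 190 to 521 for the cell cycle list.

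Immediate early genes, which are switched on within minutes by growth signals and by tissue handling, were lower. Of 17 listed, 15 could be compared and 14 fell in bleomycin lymphatic cells, against 10.4% of all genes (median log2 ratio -2.81, against 0.44 over all genes). Junb went from 2675 [2388 to 2987] to 226 [197 to 257] UPM (log2 -3.56 [-3.82 to -3.32]) and Fos from 2759 [2468 to 3076] to 257 [226 to 290] UPM. In single cells Junb ran from 0 to 7298 UPM after saline (median 2024) and from 0 to 1012 after bleomycin (median 169.8), so the bleomycin cells lay within the low end of the saline range. Egr1 (-4.05), Zfp36 (-3.82), Atf3 (-3.69), Jun (-3.16) and Socs3 (-2.81) fell as well, and so did the kinase gene Pim1 (-3.34 [-4.15 to -2.64]) outside the list.

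The summed list was at 18232 UPM in saline and 2821 UPM in bleomycin lymphatic cells. It was at 22318 and 15071 UPM in blood endothelial cells and at 19393 and 7183 UPM in non-endothelial barcodes. The list was thus lower after bleomycin in every class. In blood endothelium 4 of 17 genes fell (7.41% of all its genes were lower), and Junb had a log2 ratio of -0.44. Within the bleomycin library 16 of 17 were lower in lymphatic than in blood endothelial cells (18.6% of all genes were). Within the saline library 3 of 17 were, near the 20.3% of all genes.

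Antigen presentation genes fell too, and not in lymphatic cells alone. The summed list went from 13611 to 2579 UPM in lymphatic cells. It went from 12937 to 7310 UPM in blood endothelial cells and from 8572 to 3161 UPM in non-endothelial barcodes. In blood endothelium 4 of 9 genes fell (7.41% of all its genes were lower) and none rose. In lymphatic cells all 5 listed genes that could be compared were lower (10.4% of all genes were). Cd74, given below, was abundant enough only through the saline class, so this count is no support for a direction. B2m, the light chain of class I molecules, went from 6678 [6220 to 7161] to 1423 [1350 to 1499] UPM (log2 -2.23 [-2.36 to -2.10]), and in blood endothelial cells from 5297 to 3465 UPM. The class I genes H2-K1 and H2-D1 had log2 ratios of -2.42 and -2.21, and the related H2-Q4 and H2-Q7, outside the list, of -3.47 and -3.05. Genes of this family share sequence, and their reads may be split between them. Cd74, the class II invariant chain, fell from 973 [804 to 1168] to 27.1 [17.9 to 39.4] UPM. Its level in non-endothelial barcodes went from 966 to 282 UPM, so that the saline lymphatic level was no higher than that of the surrounding barcodes. In cells thinned to 2000 UMIs Cd74 was found in 31.8% [13.9 to 54.9] of saline and 2.74% [0.334 to 9.55] of bleomycin lymphatic cells, and in 56.2% of saline Epcam-positive barcodes.

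**Figure D5:**
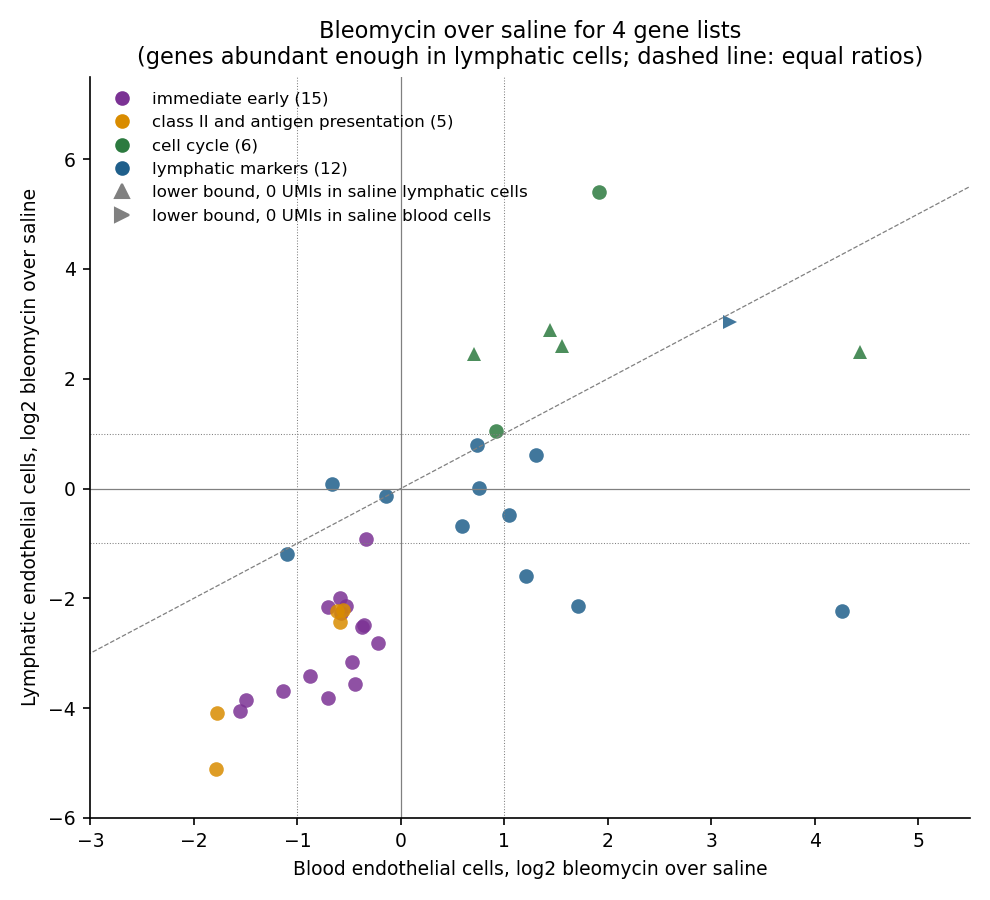
Log2 ratio of bleomycin over saline in lymphatic endothelial cells (y axis) against blood endothelial cells (x axis) for genes of 4 lists, with triangles as lower bounds for genes at 0 UMIs in saline; the dashed line marks equal ratios and dotted lines 2-fold. Immediate early genes such as Junb (-3.56 against -0.44) lie below the line, and so do antigen presentation genes such as B2m (-2.23 against -0.61).

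Several TGF-beta and BMP genes were lower after bleomycin, and matrix genes were mixed. Of 6 TGF-beta and BMP genes compared 4 were lower (10.4% of all genes were): the target Id3 (log2 -2.02 [-2.34 to -1.70]), the latency protein Ltbp4 (-1.81), the receptor Tgfbr2 (-1.25) and the co-receptor Eng (-1.11). Without the saline lymphatic cell of 20187 UMIs and the deepest bleomycin cell Id3 was at -1.22, and without the tenth of cells with the most fibroblast UMIs it was at -0.94, under 2-fold. Eng as a mean over cells was at -0.96. In blood endothelium 1 of 16 was lower (7.41% of all its genes were). Of 10 matrix genes compared 2 were higher, 3 lower and 5 neither, against 20.8% and 10.4% of all genes, with a median log2 ratio of 0.18. The higher were the fibronectin gene Fn1, from 305 to 646 UPM (log2 1.08), and the nidogen gene Nid1 (log2 1.04), both under 2-fold relative to the median of all genes. Timp3, an inhibitor of matrix proteases, fell (log2 -1.77), with 0.11 in blood endothelium. The other two rested on 1 cell. Of the saline UMIs of Mgp, an inhibitor of calcification and BMP, 76.0% lay in 1 lymphatic cell, and of those of Sparcl1, a matrix glycoprotein, 72.7%. Mgp was at 7753 and 1211 UPM (log2 -2.68), but at -0.86 without the deepest cells and at 0.23 without the tenth of cells with the most fibroblast UMIs. Sparcl1 had a log2 ratio of -2.47, and of -0.84 without the deepest cells. The summed matrix list had medians of 6597 and 6358 UPM per lymphatic cell. The Notch target Hes1 fell from 1177 to 273 UPM and Cdkn1a, a cell cycle inhibitor, from 550.2 to 156 UPM, with log2 ratios of -0.08 and 0.17 in blood endothelium.

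RNA of other cell types was present at low levels in lymphatic cells and differed between the libraries. The 9 fibroblast markers summed to 2878 UPM in saline and 659 UPM in bleomycin lymphatic cells, against 10758 and 14814 UPM in non-endothelial barcodes. Of the saline fibroblast UMIs 62.1% came from 1 lymphatic cell, the one with 20187 UMIs, which also held 91.4% of the mural marker UMIs. The 6 epithelial markers summed to 1557 UPM in saline and 43.1 UPM in bleomycin lymphatic cells, against 24047 and 313 UPM in non-endothelial barcodes. Immune markers summed to 93.1 and 54.2 UPM, and mesothelial markers had 0 UMIs and 1 UMI. The blood endothelial class held more fibroblast RNA, at 5044 UPM after saline and 2410 UPM after bleomycin, with up to 18133 UPM in a single saline cell. Its epithelial markers summed to 4113 and 18.0 UPM and its immune markers to 486 and 69.6 UPM. After saline 1 cell held 64.8% of its epithelial UMIs and 1 cell 69.6% of its immune UMIs. Ratios of lymphatic over blood endothelial cells carry this RNA as well. Without the saline cell of 20187 UMIs and the deepest bleomycin cell, 186 genes were higher and 91 lower between the libraries. The part of free RNA in the differences between libraries was not tested.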

How the data were processed

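Droplet libraries of sorted tdTomato-positive lung cells were made with the 10x Genomics single-cell 3′ chemistry, 1 for each treatment, per the labels' protocols. The deposited matrices hold UMI counts per gene and barcode, made by the authors with Cell Ranger 2.1.1 on mm10 per the submitters' processing notes, over 28692 gene rows. Library totals were 37570380 (saline) and 61537182 (bleomycin) UMIs. Of 9928 barcodes, 23 saline and 5 bleomycin ones fell to the filters on genes and mitochondrial UMIs.

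UMIs were summed per class and library and compared by size, with no test. Levels carry exact Poisson intervals, shares Clopper-Pearson intervals and ratios exact conditional binomial intervals, all at 95%; they cover counting error only. Genes of the gates were left out of the comparisons. A limit for a count of 0 takes 3 counts. The size rule was tested on simulated data. Thinning used 1 fixed seed.

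Named genes were the 15 highest and 10 lowest ratios of lymphatic over blood endothelial cells after bleomycin, the 6 highest and 6 lowest of bleomycin over saline, members of 24 gene lists, Lepr and the given markers. From the highest and lowest ratios, haemoglobin, sex-linked, mitochondrial, immunoglobulin, ribosomal protein and predicted genes were left out. So were genes with over 33.3% of the higher class's UMIs in 1 cell. These limits were not applied to list members, and some genes are in more than 1 list. The 6 extremes between libraries also had to reach the non-endothelial level. The cells, lists and comparisons were chosen with earlier results of these data known. Doublets were removed only by the Ptprc and Epcam rule: Scrublet called 0.183% and 0.134% of barcodes, too few to have worked, so its top scores served as an alternative. Python 3.11.15, numpy 2.4.6, scipy 1.17.1, pandas 2.3.3 and scanpy 1.11.5 were used. Sequences came from GENCODE vM21.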

Additional observations from a re-analysis of the deposited data

Results flagged for a closer look

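For 5 values the direction was opposite in the other class or library, by at least 2-fold on each side. None of these differences was tested, as each group is 1 library. Between the libraries, Ccl21a had a log2 ratio of bleomycin over saline of -2.24 in lymphatic and 4.27 in blood endothelial cells, where 170 of 181 bleomycin UMIs lay in 1 cell. Fgl2 was at -1.59 in lymphatic and 1.21 in blood endothelial cells, and Fxyd6 at -2.14 and 1.71. Fxyd6 in non-endothelial barcodes went from 69.9 to 232 UPM. Col1a1, a fibroblast collagen gene, was at -1.31 and 1.09, but 78.7% of its saline lymphatic UMIs lay in 1 cell, and without the deepest cell of each library its lymphatic ratio was 0.66. Gbp2, an interferon-induced GTPase, was lower in lymphatic than in blood endothelial cells after bleomycin (log2 -1.91) and higher after saline (log2 1.55). With gates on barcodes thinned to 4000 UMIs the lymphatic ratio of Fgl2 was -0.65 and the saline ratio of Gbp2 was 0.96, both under 2-fold.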

How the results depend on the processing

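Among named genes at 2-fold or more, the sign changed for 3. Between libraries Mgp went from -2.68 to 0.64 with gates on barcodes thinned to 4000 UMIs and to 0.23 without the tenth of cells with most fibroblast UMIs, and Col1a1 from -1.31 to 3.01 and 0.77, and to 0.66 without the deepest cells. Klk8 against blood after bleomycin went from 1.14 to -0.0267 as a mean over cells. Values under 2-fold also crossed 0, such as Nr2f2 against blood after bleomycin (-0.20 to 0.39) and Pdpn between libraries (-0.36 to 0.12). With gates on barcodes thinned to 4000 UMIs the lymphatic share was 0.200% after saline and 1.16% after bleomycin, and 30 genes were higher and 130 lower than in blood endothelium after saline, and 90 higher and 35 lower between libraries. As a share of endothelial barcodes, a choice made after seeing the data, it was 13.0% and 35.3%. With 60 and 30 UMIs required, the counts were 384 and 623 (against blood, bleomycin), 28 and 103 (saline) and 119 and 57 (between libraries). With 15 and 8 they were 155 and 458 (saline) and 452 and 249 (between libraries). Centring left 108 higher and 173 lower genes between libraries, and leaving out the tenth of cells with most fibroblast UMIs left 70 lower. With a mean level of at least 250 UPM, also chosen after seeing the data, the counts were 67 and 79, 42 and 58, and 83 and 73. Other gates, barcode filters, doublet scores, means over cells, totals and priors kept counts within 1.5 times. Of the genes named in the text or by the rule and at 2-fold or more, 104 of 111 (against blood, bleomycin), 43 of 47 (saline) and 41 of 56 (between libraries) kept 2-fold in every setting run. Between libraries the others were Mgp, Col1a1, Sparcl1, Id3, Eng, Kdr, Maf, Nr2f2, Fgl2, Unc5b, Fn1, Nid1, Ptx3, Angpt2 and Tyms. No paired analysis was possible because each group is 1 library. The 22 saline cells limit what could be compared: a gene with 0 UMIs there may still be at up to 25.4 UPM, taken at 3 counts.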

Other observations

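These genes were singled out after their values were seen. Vim, the intermediate filament of migrating and mesenchymal cells, rose in lymphatic cells from 1430 [1223 to 1663] UPM after saline to 8056 [7881 to 8234] UPM after bleomycin (log2 2.49 [2.27 to 2.72]), with blood endothelial cells at 2051 and 2398 UPM and non-endothelial barcodes at 1947 and 4180 UPM. All 73 bleomycin lymphatic cells held it, with a median of 4571 UPM per cell against 1195 after saline. The nuclear lamina gene Lmna rose from 220 [144 to 322] to 1171 [1105 to 1240] UPM (log2 2.41 [1.85 to 3.03]), with a log2 ratio of 0.35 in blood endothelial cells. The calcium-binding S100a6 rose from 669 to 5261 UPM and S100a4 from 1 UMI to 1095 UPM; both also rose in blood endothelial cells (log2 1.46 and 4.35), and non-endothelial barcodes went from 1260 to 7197 UPM and from 25.6 to 1602 UPM. The part of free RNA in these values was not tested.

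Some genes outside the lists separated lymphatic from blood endothelium in both libraries. Meox1, a homeobox gene, was at 296 [206 to 412] and 199 [172 to 228] UPM in saline and bleomycin lymphatic cells, against 8.43 and 9.83 UPM in blood endothelial cells. Gng11, a G-protein subunit, had log2 ratios of 1.65 [1.45 to 1.84] and 3.16 [3.02 to 3.30], and Marcksl1, an actin regulator, of 2.28 and 1.83. The nuclear RNA Malat1 and the thioredoxin-binding Txnip fell in lymphatic cells after bleomycin (log2 -1.96 and -2.61), with -0.77 and -0.27 in blood endothelial cells.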
